A study of Mus musculus with 72 samples.

Results

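Lung and liver of unirradiated mice were compared for mRNA, to describe how the tissues differed at baseline. The arrays were chosen by their labels alone and are the 6 of the 72 in the series that hold mRNA at a dose of 0 Gy, 3 of lung and 3 of liver. The mice were female C57BL/6 J animals, 6 to 8 weeks old, which stayed in the same kind of container as the irradiated mice without receiving a dose, and whose organs were taken 48 h later. The design gives 3 animals for each dose. Samples are numbered 1, 11 and 21 in each tissue, and no label says whether a number stands for the same mouse in lung and liver.

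The liver parenchyma is made of hepatocytes, which secrete most plasma proteins, make bile acids, dispose of ammonia as urea and release glucose. Sinusoidal endothelium, Kupffer cells (the resident macrophages) and vitamin A-storing stellate cells surround them. In the lung, flat alveolar type 1 cells carry gas exchange beside a dense capillary bed, alveolar type 2 cells secrete surfactant, and the airways are lined by secretory club cells and ciliated cells. Each array measured bulk RNA of an organ, so fewer cells of a type and less RNA per cell cannot be told apart.

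Levels are log2 intensities of a probe after quantile normalization of the 6 arrays together, and differences are log2, lung minus liver, with the standard error of the limma fit and 3 mice in each tissue. Of 56605 probes, 39550 were well above the local background on at least 1 array and were tested. A probe was called at an absolute difference above 1 and an adjusted p below 0.05. By this rule 8583 probes were higher in lung (21.7%) and 7959 were higher in liver (20.1%), 41.8% of those tested in all, and the median difference over all tested probes was 0.03. Differences above 3, which is more than 8-fold, were called for 2074 probes in lung (5.24%) and 1559 in liver (3.94%). The share of calls that were higher in lung, 51.9%, was 40.9% when each array was scaled to its 75th percentile, which moved the median of all probes to -0.31, and 76.1% when arrays were scaled to 18 reference genes, which moved it to 0.55.

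The plot of all tested probes shows how far the tissues lay apart. For 67.7% of probes the 3 lung values did not overlap with the 3 liver values. Correlations of log2 levels over probes were 0.986 to 0.989 between liver arrays, 0.977 to 0.98 between lung arrays and 0.781 to 0.8 between the tissues. The scanner software put 48.8 to 54% of spots well above background on liver arrays and 59.2 to 64% on lung arrays. In addition, 4287 tested probes were above background on all 3 lung arrays and no liver array, against 613 for the reverse, and 23722 were above background on all 6. Before normalization the lung arrays were brighter, with a median spot intensity of 114 to 122 against 60 to 61.5 on liver arrays. Detection was called on spots before normalization, and the part of array brightness in these counts was not tested.

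**Figure D1:**
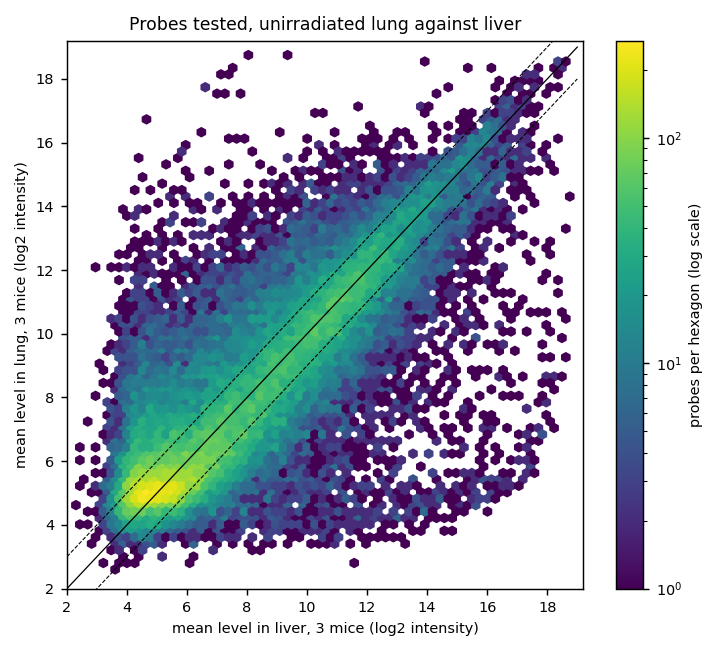
Mean log2 intensity of the 39550 tested probes over the 3 liver arrays (x axis) and the 3 lung arrays (y axis), as counts of probes per hexagon on a log colour scale. The solid line marks equal levels and the dashed lines a log2 difference of 1 in either direction, and probes lie far beyond both, up to bright in a tissue and near the floor in the other.

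The 3 liver arrays were all on 1 slide and the 3 lung arrays on another, so within these arrays tissue and slide cannot be told apart. A model of all 36 mRNA arrays can hold slide as a term, since the liver groups at 2 and 12 Gy were split over slides. It called 6942 probes higher in lung and 8195 higher in liver. For unirradiated lung and liver this term rests on those groups alone, each with 1 array on another slide than its other 2. On the slide that carried unirradiated lung there were also 2 liver arrays at 12 Gy, and within that slide, where the dose differs, 8721 and 8488 probes were called. Where a result below lost its call with slide as a term, the value is given beside it. Within the slide shared by lung and 12 Gy liver, all single genes so marked kept their call except *Cebpa* and *Tnnt3*.

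Gene lists were described with 1 probe per gene, the brightest of those tested. Over all 18572 gene symbols so reduced, 27.3% were called higher in lung and 19.4% higher in liver, with a median difference of 0.15, and each list is to be read against these figures. Where no array of a tissue measured a probe above background, the difference is given as a lower limit of the fold, written as at least N-fold: the mean of the tissue that measured it, over the dim tissue's mean of the probe's own signal or the lowest signal well above background on that array, whichever was higher. With these genes at their limits the list medians given below moved toward 0 by small amounts, most for bile acid genes, from -8.22 to -7.95. Where 1 or 2 arrays of a tissue measured a probe, the fitted difference is given, and its size rests in part on signal near background. Examples are *Apoa1*, *Cps1* and *Gulo* in lung and *Aqp5* and *Bpifb1* in liver.

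Genes of proteins that hepatocytes secrete were higher in liver without exception among the 15 listed that were tested, with a median difference of -9.66. This list also holds *Tat* and *Cps1*, whose products are not secreted. *Alb*, which codes for albumin, stood at 18.47, 18.51 and 18.54 on the liver arrays and at 7.78, 10.09 and 11.53 on the lung arrays. The tissues did not overlap, and the lung arrays lay much further apart (SD 1.89) than the liver arrays (SD 0.04). The difference was -8.71 ± 0.85, or 418-fold (adjusted p = 0.000147). *Apoa1*, the main protein of high density lipoprotein, was 3310-fold higher in liver (-11.69 ± 0.53, adjusted p = 4.38e-06), and *Fgb*, the fibrinogen beta chain, 2550-fold (-11.32 ± 0.74, adjusted p = 2.22e-05). At the other end stood *Trf*, which codes for the iron carrier transferrin. It reached 15.22 to 15.6 in lung against 18.01 to 18.12 in liver, a 6.31-fold difference that was the smallest in the list. *Serpina1a*, an alpha-1 antitrypsin gene, lost its call with slide as a term, where the difference was -7.93 (adjusted p = 0.0788).

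Among probes above background on all 6 arrays, the largest differences toward liver were those of *Fgb*, *Cyp2c70* (a steroid and bile acid hydroxylase, -11.28), *Serpinc1* (antithrombin, -11.20), *Serpina3k* (-11.17) and *Ambp* (-11.07). *Mug1*, *Cyp2d26*, *Apoh*, *Apoa5* and *Mup3* completed the 10, with *Mup3*, a major urinary protein, at -10.93. Among genes that no lung array measured, the glucuronidating enzyme *Ugt2b5* was at least 2830-fold higher in liver, followed by *Cyp3a59* at 2150-fold or more, *Ugt2b36* at 2040-fold or more and *Hgd*, a tyrosine breakdown enzyme, at 1980-fold or more. Toward lung, the largest among probes above background on all 6 arrays were *Scgb3a1* (11.03), *Ager* (10.93), *Cbr2* (10.84), *Sftpc* (10.75) and *Sftpa1* (10.38), all known from airway or alveolar epithelium. Of genes that no liver array measured, *Cxcl15*, a chemokine of lung epithelium, was at least 993-fold higher in lung, and *Reg3g*, an antibacterial lectin, at least 684-fold. With slide as a term *Reg3g*, *Cbr2* and *Sftpc* kept their calls at smaller differences, 5.42, 7.17 and 7.25.

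**Figure D2:**
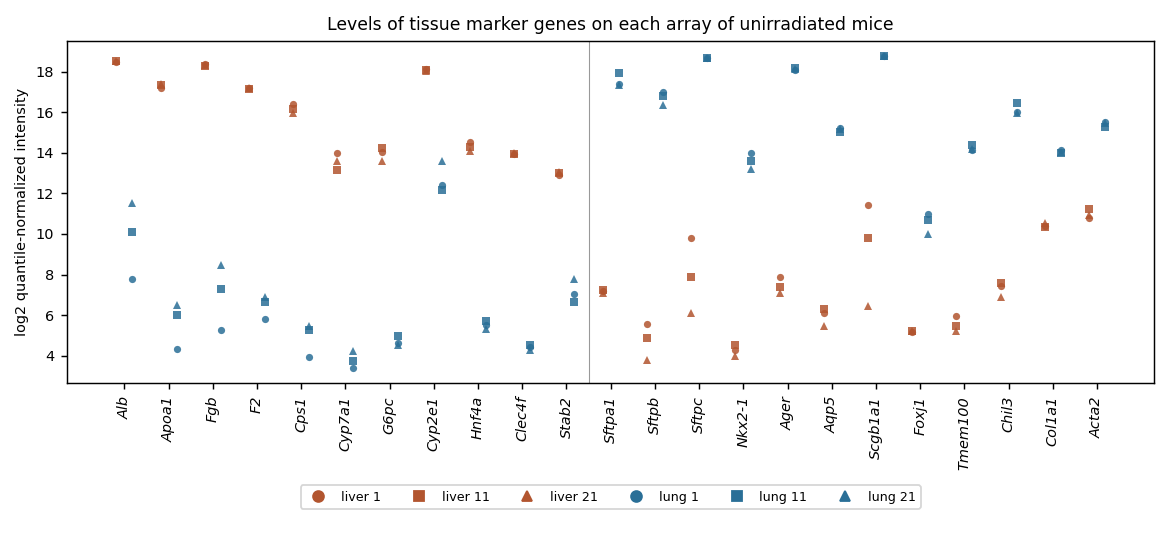
Log2 intensity (y axis) of 23 genes (x axis) on each of the 3 liver and 3 lung arrays, with a symbol for each array. The hepatocyte, Kupffer cell and sinusoidal genes left of the line are higher on all 3 liver arrays and the lung genes right of it are higher on all 3 lung arrays, and *Alb*, *Fgb*, *Sftpc* and *Scgb1a1* are spread widely in the tissue where they are low.

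Complement and clotting genes were called higher in liver for 25 of 26 measured, with a median of -8.85. *F2*, which codes for prothrombin, stood at 17.21, 17.16 and 17.19 in liver and at 5.8, 6.64 and 6.87 in lung (-10.75 ± 0.28, adjusted p = 5.23e-07). *C8a* and *C8b*, subunits of the membrane attack complex, were not above background on any lung array and were at least 498-fold and at least 1090-fold higher in liver. Several members were also bright in lung. *C3*, the central complement component, reached 15.37 to 15.76 in lung and 17.88 to 17.93 in liver (-2.39 ± 0.16, adjusted p = 2.55e-05), and *C4b* differed by -2.34 ± 0.15. The member not called was *Hc*, which codes for complement C5. Its only tested probe lay at 14.52 to 14.62 in liver and 14.49 to 14.6 in lung, a difference of 0.00 ± 0.13, and under 75th percentile scaling it was called higher in liver (-1.15).

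Bile acid genes were called higher in liver for 16 of 17, with a median of -8.22. *Cyp7a1*, the rate-limiting enzyme of bile acid synthesis, stood at 13.99, 13.16 and 13.6 in liver, and no lung array measured it, so that it was at least 648-fold higher in liver. The export pump *Abcb11* differed by -10.64 ± 0.25 and the uptake carrier *Slco1b2* by -11.09 ± 0.30. For the bile acid carrier *Slc10a1* the probes disagreed. Its brightest probe was at 16.9 to 16.98 in liver and 17.2 to 18.05 in lung (0.75 ± 0.23, adjusted p = 0.0284, not called), and its other probe was at 16.03 to 16.07 in liver and 4.03 to 5.15 in lung (-11.29 ± 0.31, adjusted p = 6.03e-07).

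All 5 enzymes of the urea cycle were called higher in liver: *Cps1* (-11.29), *Otc* (-10.13), *Ass1* (-6.22), *Asl* (-5.24) and *Arg1* (-9.19). Together with genes of amino acid breakdown they made a list with 22 of 23 called in this direction and a median of -9.19. *Hpd*, which breaks down tyrosine, stood at 17.26 to 17.51 in liver and 4.88 to 6.64 in lung (-11.53 ± 0.42, adjusted p = 1.79e-06). *Glul*, glutamine synthetase, was the member not called, at 14.84 to 15.33 in liver and 13.96 to 14.49 in lung (-0.86 ± 0.20, adjusted p = 0.00985), while its 2 dimmer probes were called at -3.25 and -2.27, and 75th percentile scaling gave -1.95.

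Enzymes of glucose release and storage were called higher in liver for 12 of 12 members, with a median of -6.75. *G6pc*, glucose-6-phosphatase, was at 14.05, 14.22 and 13.61 in liver and was not above background on any lung array, which makes it at least 612-fold higher in liver. *Pck1*, the entry enzyme of gluconeogenesis, differed by -5.36 ± 0.72 (adjusted p = 0.000706), with lung arrays far apart at 11.11, 9.94 and 13.11. *Pck1* is also made by fat cells and is a member of the fat cell list described further on. Lung 21, its highest lung array, had the highest mean of that list, to which *Pck1* itself contributes. A link between them was not tested.

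Many of these enzymes have a counterpart coded by another gene that serves other tissues. In 12 such pairs shown here the form attributed to liver was called higher in liver in 10, and in 7 of these the counterpart was called higher in lung. For pyruvate kinase, *Pklr* was at least 49.2-fold higher in liver and *Pkm* was 9.57-fold higher in lung. The same opposition was called for *Gys2* and *Gys1* (glycogen synthases, -7.74 and 2.18), *Mat1a* and *Mat2a* (methionine adenosyltransferases, -8.39 and 1.33), and *Cpt1a* and *Cpt1c* (carnitine palmitoyltransferases, -1.61 and 2.02). For *Cpt1c* the call was kept with slide as a term (2.15, adjusted p = 0.000414). It was not made within the shared slide, where liver had received 12 Gy (0.51, adjusted p = 0.158), or by a second probe (0.85).

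Under 75th percentile scaling *Mat2a* (0.32) fell below the size required. Several pairs did not follow this pattern. By the forms assigned here the enolases ran the other way, with *Eno3* higher in lung (2.18 ± 0.28) and *Eno1* higher in liver (-1.31 ± 0.16). *Eno3*, taken here as the liver form, codes for the enolase known from muscle. It was highest on lung 11 (12.78, against 11.92 on lung 1 and 11.7 on lung 21). A link to the muscle genes described further on was not tested. For the glucose carriers, *Slc2a2* was at least 237-fold higher in liver, and *Slc2a1* overlapped between the tissues (0.28 ± 0.24, adjusted p = 0.35). The phosphofructokinase *Pfkl* also overlapped (0.01 ± 0.17, adjusted p = 0.971), while *Pfkp* was 8.67-fold higher in lung.

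**Figure D3:**
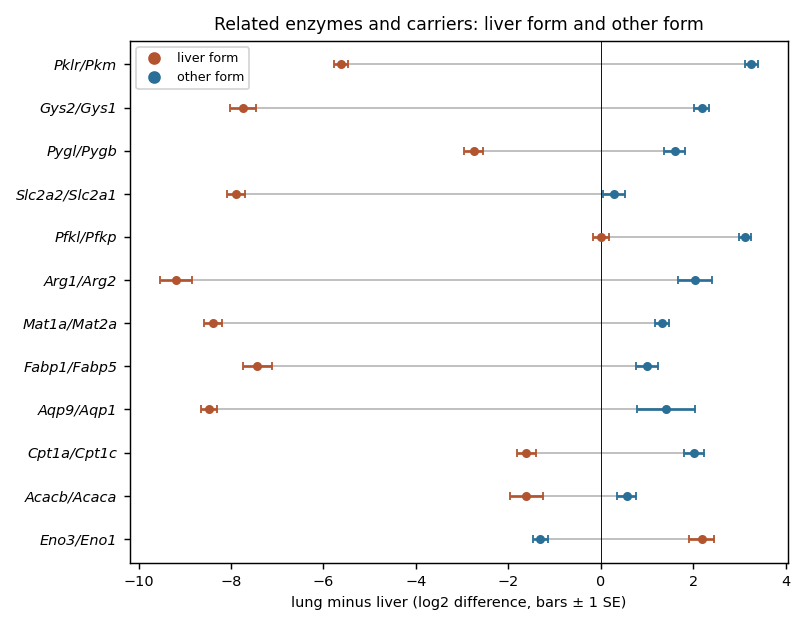
Log2 difference, lung minus liver, of the 2 genes in each of 12 enzyme or carrier pairs (points, with bars of 1 standard error; 3 arrays of each tissue). In 7 pairs the form attributed to liver was called left of 0 and its counterpart right of 0. For the enolases, with *Eno3* taken as the liver form, the order is turned.

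Cytochrome P450 genes of drug metabolism were called higher in liver for 18 of 24, and 4 were called higher in lung. *Cyp2c29* (-11.85 ± 0.44) and *Cyp3a11* (-11.55 ± 0.43) were among those with the largest differences, and *Cyp3a11* was lower on liver 1 (15.72) than on liver 11 and liver 21 (17.15 and 17.05). *Cyp2e1*, which oxidises ethanol, was at 18.05 to 18.12 in liver and still at 12.16 to 13.57 in lung (-5.36 ± 0.36). Higher in lung were *Cyp2s1* (5.91 ± 0.23, adjusted p = 2.25e-06), *Cyp4b1* (3.65 ± 0.35, adjusted p = 0.000127), *Cyp1b1* and *Cyp1a1*. With slide as a term *Cyp1b1* (1.52, adjusted p = 0.0931) and *Cyp1a1* (1.74, adjusted p = 0.376) lost the call. *Cyp2f2*, which both club cells and hepatocytes near the portal vein are known to make, was very bright in both tissues, at 17.34 to 17.42 in liver and 18.1 to 18.41 in lung (0.84 ± 0.15, adjusted p = 0.00259), below the size required for a call.

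Transcription factors of the hepatocyte were called higher in liver for 14 of 16, with a median of -5.81. *Hnf4a*, a nuclear receptor that binds many liver promoters, stood at 14.54, 14.28 and 14.07 in liver and 5.52, 5.73 and 5.32 in lung (-8.77 ± 0.19, adjusted p = 2.8e-07). The constitutive androstane receptor *Nr1i3* was at least 494-fold higher in liver, and the farnesoid X receptor *Nr1h4*, the bile acid sensor, differed by -8.63 ± 0.26. *Cebpa* differed by only -1.10 ± 0.19 and lost the call with slide as a term (-0.84, adjusted p = 0.0901) and without lung 21 (-0.97). The forkhead genes that liver and lung epithelium share had smaller differences or none called. *Foxa1* was higher in lung (1.62 ± 0.15, adjusted p = 0.000133), and *Foxa2* was at 11.79 to 11.97 in liver and 12.42 to 12.54 in lung and was not called (0.62 ± 0.14). *Foxa3*, which serves liver more than lung, was 66-fold higher in liver.

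Hepatocytes divide their work along the sinusoid, from the portal vein to the central vein, and genes of both ends were higher in liver. Of 12 periportal genes 11 were called (median -9.06), and of 11 pericentral genes 9 were called (median -3.90). The brightest probes of *Etnppl*, *Hsd17b13* and *Hsd17b6* of the periportal list were not above background on any lung array. The pericentral gene *Gulo*, which makes vitamin C in mice, differed by -11.10 ± 0.26, and the Wnt target *Lgr5*, at 9.21 to 9.94 in liver and 5.33 to 5.89 in lung, by -3.90 ± 0.24. *Tbx3*, a pericentral transcription factor that is also active in lung mesenchyme, was called higher in lung (2.16 ± 0.26, adjusted p = 0.000391).

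Markers of other cells that reside in the liver were higher in liver in part. Kupffer cell markers were called for 9 of 13 (median -2.24). *Clec4f*, a lectin of Kupffer cells, stood at 13.93, 13.94 and 13.98 in liver, and no lung array measured it (at least 746-fold). *Cd5l* (-5.80 ± 0.18) and *Vsig4* (-5.27 ± 0.39) followed, whereas the pan-macrophage gene *Adgre1* did not reach the required size (-0.88 ± 0.19). It was called higher in liver without lung 11 (-1.01) and in settings that share 75th percentile scaling. These were the corrected signal (-1.24), the processed signal so scaled (-1.3) and the authors' values (-1.42). *Timd4* lost the call with slide as a term (-1.54, adjusted p = 0.164).

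Sinusoidal endothelium markers were called higher in liver for 8 of 14 (median -1.99). *Clec4g* stood at 14.2 to 14.29 in liver and 7.36 to 8.09 in lung (-6.43 ± 0.22), and *Stab2*, a hyaluronan scavenger receptor, differed by -5.81 ± 0.29. *Lyve1*, which marks sinusoids in liver and lymphatic vessels in other organs, was called higher in lung, at 13.22 to 13.62 against 9.82 to 10.07 (3.48 ± 0.17, adjusted p = 5.25e-06). Stellate cell markers were called in both directions, 7 in liver and 3 in lung of 13. *Colec11* (-5.53 ± 0.26), *Lhx2* (-4.66 ± 0.26) and *Reln* (-3.63 ± 0.16) were higher in liver, *Des*, an intermediate filament shared with smooth muscle, was higher in lung (3.04 ± 0.27), and *Lrat*, which stores vitamin A as ester, overlapped (0.18 ± 0.20, adjusted p = 0.458). Bile duct markers included many that lung epithelium shares, and 6 of 12 were higher in lung, led by the keratins *Krt7* (6.62 ± 0.17) and *Krt19* (5.52 ± 0.16). *Onecut1* and *Pkhd1* were the 2 called higher in liver.

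**Figure D4:**
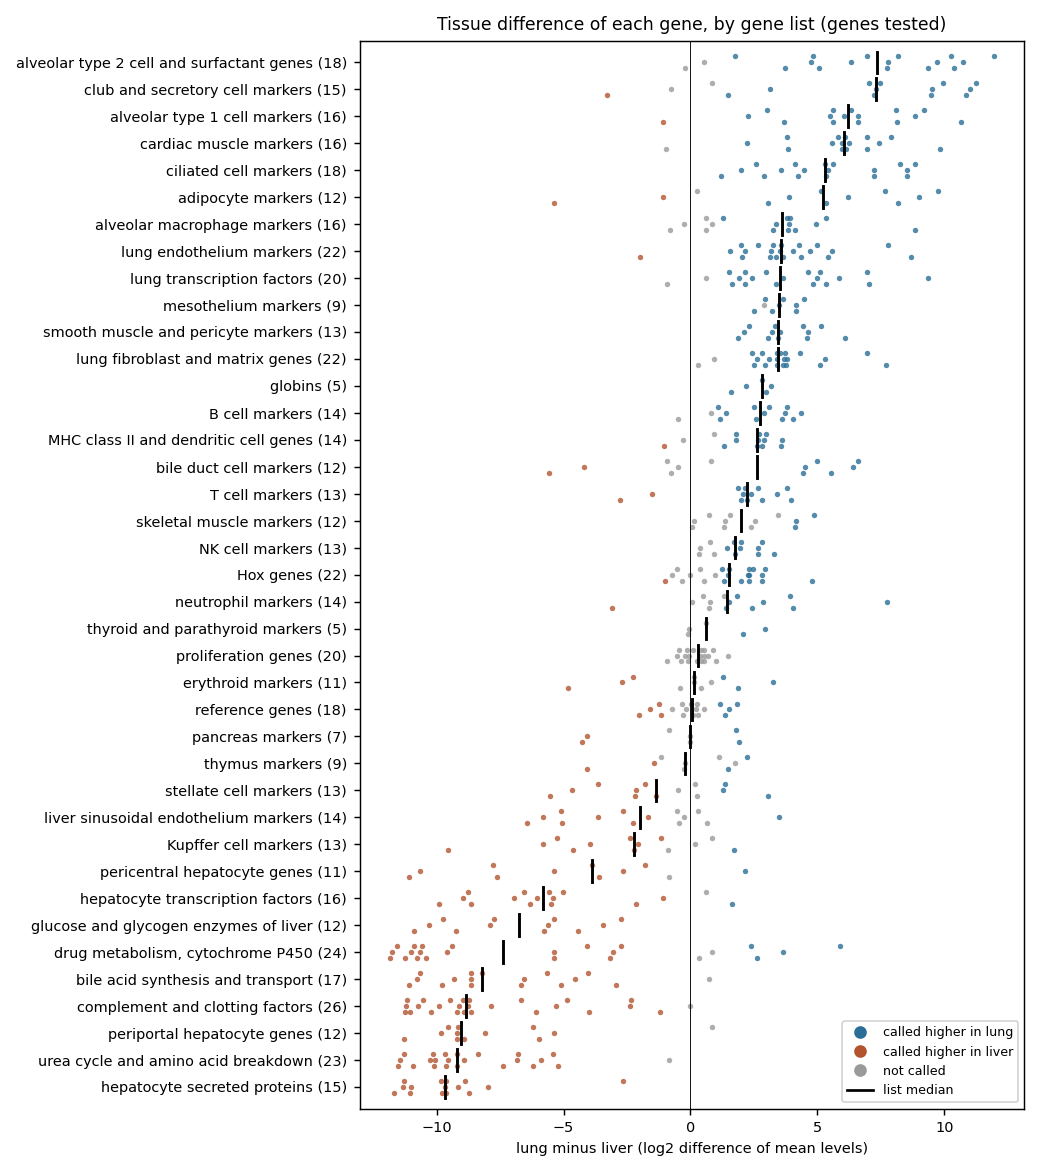
Log2 difference, lung minus liver, of each tested gene (points, coloured by its call) in each list (rows, with the number of genes tested), and the list's median (black bar). Genes above background in only 1 tissue are drawn at their fitted difference. Lists of hepatocyte secreted proteins, enzymes and transcription factors have medians from -9.66 to -5.81 and those of alveolar and airway epithelium from 5.32 to 7.35.

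Alveolar type 2 cell and surfactant genes were called higher in lung for 16 of 18, with a median of 7.35, against 27.3% of all symbols. All 4 surfactant protein genes were among them. *Sftpb*, whose product is needed to spread the surfactant film, stood at 16.99, 16.79 and 16.33 in lung, and no liver array measured it, which makes it at least 3520-fold higher in lung, the largest lower limit of any gene. *Sftpa1* was at 17.36 to 17.92 in lung and 7.11 to 7.23 in liver (10.38 ± 0.19, adjusted p = 2.06e-07). *Sftpd* was at 17.27 to 17.59 in lung and 7.66 to 7.79 in liver (9.71 ± 0.15). *Sftpc* held the same quantile on each lung array, at 18.69, so that its lung values show no spread by construction. Its liver values lay apart, at 9.81, 7.9 and 6.1 (10.75 ± 0.83, adjusted p = 4.92e-05). The lipid transporter *Abca3*, which loads surfactant into lamellar bodies, differed by only 1.76 ± 0.15 with liver values of 13.07 to 13.19, and it fell below the size required under 75th percentile scaling (0.77). *Ctsh* and *Fasn*, a protease and the fatty acid synthase that liver also uses, were not called. For *Ctsh* 75th percentile scaling gave a call toward liver (-1.16), as did a dimmer probe (-1.31).

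The promoters of *Sftpb* and *Sftpa1* are shown because the factor NKX2-1 is known to act at surfactant promoters. *Nkx2-1* stood at 14, 13.59 and 13.22 in lung, and no liver array measured it (at least 551-fold). The letters CTCAAG, a core of its binding motif, were searched on either strand in the 250 bases before the annotated start. They were found in 6 of the 23 type 2 and club cell genes that had a promoter sequence (26.1%), of 33 tested, in 2 of the 28 hepatocyte secreted, complement and clotting genes with a promoter (7.14%) and in 4378 of all 32851 promoters (13.3%). A list gene was counted if any of its promoters held the letters, whereas the 32851 promoters, of 27025 symbols, were counted singly. The shares are therefore not in the same unit. The match is a description of letters and was not tied to binding. The sequences, from RefSeq, build GRCm38.p6, are the 180 bases before the start, at chr6:72304430-72304609 for *Sftpb* and at chr14:41131608-41131787 for *Sftpa1*, both on the plus strand, with the motif in capitals.
Sftpb: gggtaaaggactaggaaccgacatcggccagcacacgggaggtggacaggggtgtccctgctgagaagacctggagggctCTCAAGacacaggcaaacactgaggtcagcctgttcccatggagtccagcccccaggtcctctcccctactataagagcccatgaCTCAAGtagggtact
Sftpa1: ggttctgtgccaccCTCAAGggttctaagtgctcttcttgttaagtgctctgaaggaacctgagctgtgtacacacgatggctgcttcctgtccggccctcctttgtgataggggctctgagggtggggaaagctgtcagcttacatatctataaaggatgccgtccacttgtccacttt
It begins 100 and 15 bases before the start in *Sftpb* and 166 bases before the start in *Sftpa1*.

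Alveolar type 1 cell markers were called higher in lung for 15 of 16 (median 6.2). *Ager*, the receptor for advanced glycation end products on the basal face of these cells, stood at 18.06, 18.19 and 18.14 in lung and 7.87, 7.37 and 7.1 in liver (10.68 ± 0.22, adjusted p = 2.47e-07), and its 5 tested probes were all called higher in lung, at 4.03 to 10.93. The water channel *Aqp5* differed by 9.19 ± 0.23, and *Rtkn2* was at least 453-fold higher in lung. *Igfbp2*, a marker of mature type 1 cells that hepatocytes also secrete, was called higher in liver (-1.07 ± 0.18), a call lost with slide as a term (-0.96), without liver 21 (-0.96) and without lung 21 (-0.94).

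Club and secretory cell markers were called higher in lung for 12 of 15 (median 7.33). *Scgb1a1*, the club cell secretoglobin, was likewise at 1 quantile on each lung array, 18.75, and at 11.43, 9.82 and 6.43 in liver (9.52 ± 1.14, adjusted p = 0.000398). *Scgb3a2* differed by 11.27 ± 0.59 and *Scgb3a1* by 11.03 ± 0.52. *Bpifb1*, an airway defence protein, and *Muc5b*, a mucin, differed by 9.96 ± 0.48 and 7.48 ± 0.54, both lowest on lung 21 among the lung arrays. Paraoxonase *Pon1*, in this list as a club cell gene, was higher in liver (-3.28 ± 0.21), where it is a secreted enzyme, and haptoglobin *Hp* was bright in both, at 16.65 to 17.21 in lung and 17.63 to 17.72 in liver, and was not called, though it was called higher in liver under 75th percentile scaling (-2.07) and scaling to the reference genes (-1.21).

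Ciliated cell markers were called higher in lung for 18 of 18 (median 5.32). *Foxj1*, the factor that drives motile cilium formation, stood at 10.96, 10.67 and 9.99 in lung, and no liver array measured it (at least 40.4-fold). *Tekt1* of the cilium shaft was at least 137-fold higher, *Ccdc153* at least 797-fold, and *Tppp3*, a tubulin-binding protein at 16.07 to 16.36 in lung, differed by 8.55 ± 0.18. With slide as a term the dynein genes *Dnah5* (1.58, adjusted p = 0.117), *Dnaic1* (0.83, adjusted p = 0.292) and *Dnaic2* (1.54, adjusted p = 0.451) and the axoneme gene *Ccdc39* (1.78, adjusted p = 0.0778) lost the call. *Dnaic1* also lost it without liver 1 (0.95). Within the shared slide, with liver at 12 Gy, each was called: *Dnah5* at 5.34, *Dnaic1* at 1.99, *Dnaic2* at 4.9 and *Ccdc39* at 2.34.

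Endothelial genes were higher in lung, although liver holds a large endothelium of its own. Of 22 lung endothelium markers 21 were called higher in lung (median 3.55). Genes of endothelium in general differed moderately, with *Pecam1* at 11.68 to 12.15 in lung and 8.18 to 8.66 in liver (3.53 ± 0.20), *Cdh5* at 3.57 ± 0.18 and *Kdr*, the receptor for vascular endothelial growth factor, at 2.01 ± 0.23. Genes of alveolar capillaries stood further apart. *Car4*, a carbonic anhydrase of aerocytes, was at least 196-fold higher in lung, *Tmem100* at least 417-fold, and *Ace*, the angiotensin-converting enzyme, differed by 5.43 ± 0.26. *Vwf*, the carrier of factor VIII, was at 15.06 to 15.58 in lung and 10.23 to 10.77 in liver (4.71 ± 0.22). *Ackr1*, a venular chemokine receptor, was the member called higher in liver (-1.97 ± 0.35), and this call was lost when arrays were scaled to the reference genes (-0.93).

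Alveolar macrophage markers were called higher in lung for 11 of 16 (median 3.59). *Chil3*, a chitinase-like protein, stood at 15.99, 16.46 and 15.94 in lung and 7.43, 7.6 and 6.88 in liver (8.83 ± 0.24, adjusted p = 6.28e-07). The eosinophil-associated ribonucleases *Ear1* (4.13 ± 0.32) and *Ear2* (3.91 ± 0.18) and the integrin *Itgax* (3.81 ± 0.17) were also higher in lung, and *Siglecf* was at least 14.4-fold higher. The scavenger receptors that Kupffer cells share, *Marco* (0.85 ± 0.23) and *Mrc1* (-0.27 ± 0.18), were not called, though *Marco* was under scaling to the reference genes (1.28). *Cidec* (5.33 ± 0.3) and *Fabp4* (3.88 ± 0.34) of this list are also fat cell genes.

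Matrix and contractile genes were mostly higher in lung. Fibroblast and matrix genes were called for 20 of 22 (median 3.46) and smooth muscle and pericyte markers for 13 of 13 (median 3.46). Among collagens, *Col1a1* differed by 3.65 ± 0.14, *Col1a2* by 2.95 ± 0.14, *Col3a1* by 2.43 ± 0.20 and *Col4a1* by 3.41 ± 0.18. *Eln*, which codes for elastin, stood at 10.5 to 11.44 in lung and 6.96 to 7.5 in liver (3.74 ± 0.27), and *Limch1* of alveolar fibroblasts differed by 7.70 ± 0.23. *Acta2*, smooth muscle actin, was at 15.27 to 15.5 in lung and 10.79 to 11.21 in liver (4.43 ± 0.17). *Inmt*, a methyltransferase bright in both tissues at 17.38 to 18.01, was not called (0.30 ± 0.17) and was called higher in liver under 75th percentile scaling (-1.15).

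Transcription factors of lung epithelium and mesenchyme were called higher in lung for 18 of 20 (median 3.52). Besides *Nkx2-1*, the T-box genes of lung mesenchyme *Tbx4* and *Tbx5* were not above background on any liver array and were at least 123-fold and at least 110-fold higher in lung. *Foxf1*, a mesenchymal and endothelial forkhead gene, was at 15 to 15.35 in lung and 10.16 to 10.25 in liver (5.00 ± 0.15), and the airway gene *Sox2* was at least 38.7-fold higher. Hox genes, which record position along the body axis, were called higher in lung for 14 of 22, with a median of 1.5. *Hoxa5*, which lung development needs, had the largest difference, at 11.3 to 11.78 in lung and 6.72 to 6.84 in liver (4.79 ± 0.17, adjusted p = 1.65e-06), followed by *Hoxa3* (2.92 ± 0.18). *Hoxb3* sat at the threshold in the liver direction (-1.0 ± 0.17), and the value was 0.00 when arrays were scaled to the reference genes. Its other probe, which no liver array measured, was called at least 2.87-fold higher in lung. The call was lost with slide as a term (adjusted p = 0.0792) and at -0.99 to -0.91 without liver 1, liver 11, lung 11 or lung 21. *Hoxa2*, *Hoxa4*, *Hoxb6* and *Hoxc6* lost the call with slide as a term, at 1.02 to 1.66 (adjusted p from 0.15 to 0.532).

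Lymphocyte genes were mostly higher in lung, and for T cells they varied between the lung arrays. B cell markers were called for 12 of 14 (median 2.73), with *Ms4a1*, which codes for CD20, at 10.95, 12.27 and 13.03 in lung and 7.77, 8.11 and 8.23 in liver (4.05 ± 0.50, adjusted p = 0.000439). NK cell markers were called for 9 of 13 (median 1.76), led by *Gzma* (3.31 ± 0.16). T cell markers were called higher in lung for 11 of 13 (median 2.22) and higher in liver for *Cd4* (-1.52 ± 0.39, or -0.99 with reference gene scaling) and *Zap70* (-2.79 ± 0.26). *Cd8b1* stood at 9.9, 11.24 and 13.87 in lung against 7.34 to 8.4 in liver (3.82 ± 0.94, adjusted p = 0.011), and *Cd3d* at 10.87, 11.51 and 13 against 8.78 to 9.23 (2.81 ± 0.51). In all 4 of these T cell genes lung 21 was the highest lung array, and limma's test against a fold threshold (treat) called 4 of the list higher in lung in place of 11. On lung 21 the thymocyte genes *Dntt* (13.12, against 5.48 and 7.68 on the other lung arrays and 9.61 to 10.29 in liver) and *Rag2* (8.21, against 4.17 and 4.43, with a second probe above background on no lung array) were also high, and their part in the T cell result was not tested. MHC class II and dendritic cell genes were called higher in lung for 11 of 14 (median 2.64), with *H2-Ab1* at 2.71 ± 0.25 and the invariant chain *Cd74* at 2.83 ± 0.25.

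Granulocyte and red cell genes were higher in lung in part. Neutrophil markers were called for 8 of 14 (median 1.45). *S100a8* stood at 10.77, 11.8 and 11.97 in lung and 7.02, 8.28 and 7.52 in liver (3.91 ± 0.42), and *S100a9* differed by 4.06 ± 0.29. *Ltf*, lactoferrin, which airway glands also secrete, differed by 7.73 ± 0.56, while *Ly6g* was higher in liver (-3.11 ± 0.20). All 5 globin probes were higher in lung (median 2.81), with *Hba-a1* at 18.23, 18.38 and 18.34 in lung and 16.06, 16.21 and 16.16 in liver (2.17 ± 0.14, adjusted p = 1.83e-05). Globin genes are near-identical copies, so their probes may share signal. Of 11 other erythroid markers, 3 were called higher in lung, by 1.30 to 3.27, and 3 higher in liver (median 0.13). Among the latter, *Klf1* was at least 28.2-fold higher in liver and *Hemgn* differed by -2.27 ± 0.16, while a dimmer *Hemgn* probe, above background on 1 array alone, a lung array, was called higher in lung. With slide as a term 3 neutrophil genes and 1 globin were called higher in lung, and within the shared slide 7 and 5 were. For *Hba-a1* the slide term gave 2.30 (adjusted p = 0.0579). Under 75th percentile scaling 3 of the 5 globins were called, without *Hba-a1* (0.85).

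Proliferation genes were not called in either direction in any of the 20 tested (limma, median 0.30), and 3 of them had an unadjusted p below 0.05. Across alternative settings 0 to 3 were called higher in lung, except that scaling to the reference genes called 8 and the comparison within the shared slide, where liver had received 12 Gy, called 13. *Mki67* stood at 8.19, 9.16 and 9.91 in liver and 9.94, 10.16 and 11.63 in lung (1.49 ± 0.57, adjusted p = 0.0601). It was called higher in lung in 8 alternative settings, among them all 36 arrays together (adjusted p = 0.00554) and the replicate block (adjusted p = 0.00404). *Cdc20* ranged from 8.08 to 10.81 among the liver arrays. The list's mean log2 level was 7.18 on liver 1 and 8.12 and 8.46 on the other liver arrays, and 7.51, 7.98 and 8.94 on the lung arrays, so the spread within a tissue was larger than the difference between them.

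Genes in common use as references for such comparisons were called in 8 of 18 cases, and 46.7% of all symbols tested were called in either direction. *Actb* was higher in lung (1.38 ± 0.23, adjusted p = 0.00198) and *Gapdh* higher in liver (-1.17 ± 0.14, adjusted p = 0.000402). The brightest probes of *Ywhaz*, *Tfrc* and *Polr2a* were also higher in lung, while a dimmer probe of each was not called, and *Sdha* and *Pgk1* higher in liver. *Actb* and *Polr2a* fell below the size required under 75th percentile scaling (0.38 and 0.74), and *Tfrc* lost its call without liver 21 (0.87), without lung 11 (0.90) and with slide as a term (adjusted p = 0.178). *Tbp* (0.26 ± 0.14), *Hprt* (0.20 ± 0.16) and *Rps18* (0.02 ± 0.13) were not called, and *Rps18* was called higher in liver under 75th percentile scaling (-1.02).

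Markers of tissues other than lung parenchyma were present on the lung arrays. Cardiac muscle markers were called higher in lung for 15 of 16 (median 6.05), and all 16 were above background on each lung array. *Myh6*, the cardiac alpha myosin chain, stood at 14.61, 13.02 and 14.33 in lung and 6.88, 5.7 and 5.65 in liver (7.91 ± 0.50, adjusted p = 2.03e-05). *Sln*, a regulator of the calcium pump of the atrium, was at least 692-fold higher in lung, and the atrial myosin light chains *Myl7* (5.99 ± 0.25) and *Myl4* (5.99 ± 0.25) were at 14.26 to 15.77 in lung. The summed linear level of the list was 108000 to 196000 on the lung arrays and 6500 to 8340 on the liver arrays. Heart muscle is known to sheathe the pulmonary veins of mice. The labels name the organ as lung, while the study's design text speaks of hearts, and the arrays carried both the lung markers above and these genes. Their part in the results was not tested. With slide as a term 4 of the cardiac genes were called, and *Myh6* (2.43, adjusted p = 0.325), *Sln* (3.53, adjusted p = 0.188) and *Myl7* (2.30, adjusted p = 0.165) were not. Within the shared slide 15 were called, with *Myh6* at 8.42. Between the slides of unirradiated liver and lung, the slide term rests on the liver groups at 2 and 12 Gy alone. In each of these groups 1 array lay on another slide than the other 2. Over the liver arrays of all doses the list's mean level had a median of 5.88 and reached 10.07. At 2 Gy *Sln* differed by 5.2 between the tissues, against 9.56 to 10.61 at the other doses. The part of single liver arrays in the lost calls was not tested.

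Skeletal muscle markers set lung 11 apart. Their mean log2 level was 11.38 on lung 11 and 6.38 and 6.45 on lung 1 and lung 21, with 5.8 to 5.93 on the liver arrays. The fast myosin *Myh1* stood at 11.89 on lung 11, against 4.68 and 4.67 on the other lung arrays and 4.14 to 4.86 in liver, where no array measured it above background, and it was not called. Of 12 genes 3 were called higher in lung, *Ckm*, *Tnni2* and *Tnnt3*, and each was highest on lung 11 (11.75, 14.97 and 14.69). Without lung 11 the list had 4 calls, and without liver 1, liver 11 or liver 21 it had 1. With slide as a term *Ckm* (3.02, adjusted p = 0.312), *Tnni2* (adjusted p = 0.56) and *Tnnt3* (adjusted p = 0.433) lost their calls. Over all probes, leaving out lung 11 gave 8602 calls higher in lung and 8047 higher in liver.

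Fat cell genes were higher in lung for 9 of 12 (median 5.23). *Adipoq*, the hormone adiponectin, stood at 13.27, 13.62 and 14.65 in lung and 6.61, 5.89 and 5.99 in liver (7.68 ± 0.38, adjusted p = 6.63e-06). *Cfd*, adipsin, differed by 9.74 ± 0.74 and *Retn*, resistin, was at least 518-fold higher in lung. *Ucp1*, the uncoupling protein of brown fat, was at 12.67, 10.47 and 14.74 in lung and at 4.86 and 4.03 on the 2 liver arrays where its spot was not marked as an outlier (8.18 ± 1.18, adjusted p = 0.00172); with slide as a term its adjusted p was 0.054. *Ucp1*, *Cidea* and *Fabp4* were highest on lung 21 and lowest on lung 11. *Lep* and *Pck1* were the 2 called higher in liver, and *Lep* lost its call with slide as a term (-0.61) and under 75th percentile scaling (-0.80). Mesothelium markers were called for 8 of 9 (median 3.50), with *Msln*, mesothelin, at 14.12 to 14.25 in lung and 9.99 to 10.12 in liver (4.16 ± 0.14), and 5 were called with slide as a term.

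**Figure D5:**
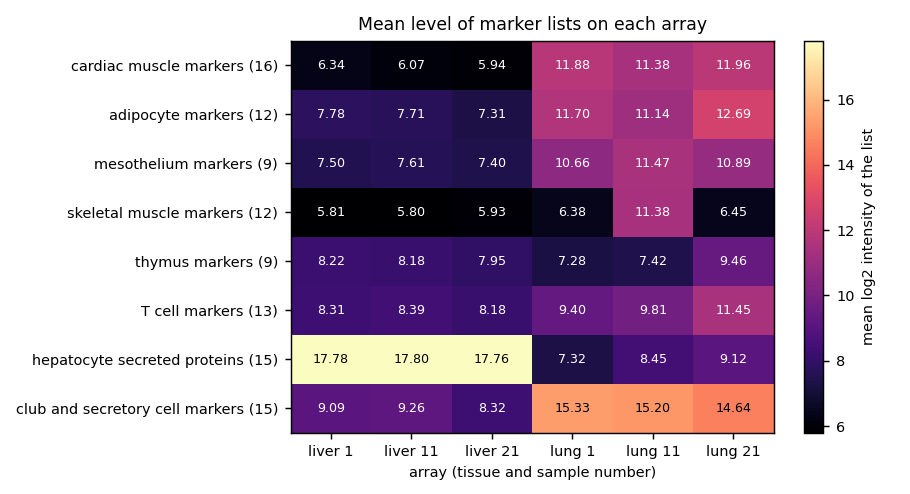
Mean log2 intensity of 8 marker lists (rows, with the number of genes tested) on each of the 6 arrays (columns), printed in the cells and shown as colour. Cardiac muscle, adipocyte and mesothelium means are higher on all 3 lung arrays than on any liver array, the skeletal muscle mean is high on lung 11 alone (11.38), and the thymus mean is highest on lung 21 (9.46).

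Short lists also covered more distant organs. Of 7 pancreas genes *Cpa1* and *Cpb1* were called higher in lung and *Cela1* and *Ctrb1* higher in liver, and of 5 thyroid and parathyroid genes *Tg* and *Calca* were called higher in lung, both at 6.67 to 7.77 there. With slide as a term *Cpa1* (adjusted p = 0.18) and *Cpb1* (adjusted p = 0.669) lost the call. Thymus genes were called for 2 of 9 in each direction.

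Abundant genes of a tissue were also measured at low levels in the other, and the arrays differed in this. On the lung arrays, 12 of the 15 hepatocyte secreted genes were lowest on lung 1 (80%) and 13 were highest on lung 21 (86.7%). Of all tested probes, 34% were lowest on lung 1 and 28.3% were highest on lung 21. With the complement and clotting genes joined to the hepatocyte secreted genes, 29 of 41 were lowest on lung 1 (70.7%) and 22 highest on lung 21 (53.7%). *Ttr*, which codes for the thyroxine carrier transthyretin, was an exception, at 11.02 on lung 1 against 7.14 and 7.92. On the liver arrays, 23 of 33 type 2 and club cell genes were lowest on liver 21 (69.7%), as were 33.5% of all tested probes. The source of these low levels was not tested.

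The differences of unirradiated tissue were also seen in mice given 1 to 12 Gy, in the fit of all 36 arrays. At the 5 doses from 1 to 12 Gy, in rising order, this fit called 17.5, 17.9, 17.6, 18.4 and 20.8% of 47376 probes higher in lung and 16.9, 17.1, 17.1, 18.1 and 19.6% higher in liver. Of the 8583 probes higher in lung at 0 Gy, 82.6 to 84.7% were called in the same direction at each single dose and 5960 at all 5 (69.4%). Of the 7959 higher in liver, 80 to 86.3% were, and 5281 at all 5 (66.4%). Among differences above 3, 2029 of 2074 in lung (97.8%) and 1554 of 1559 in liver (99.7%) were called at all 5 doses. Each of the 40 genes with the largest differences, such as *Sftpb* and *Ugt2b5*, was called at each dose.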

How the data were processed

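RNA of whole organs, snap frozen after harvest, was amplified through successive rounds of poly(A) priming, labelled and hybridised by the authors to 1-colour Agilent mouse 8x60K arrays, per the labels. The scanner files, written by Feature Extraction 11.5.1.1, hold the spot and background intensity deposited by the authors. The deposited series values are linear intensity too. How they were scaled was not given in the sources used here, but their 75th percentile was 1.01 on each of the 6 arrays. Here, median spot intensities were background-corrected with normexp (offset 0), spots marked as outliers were set to missing, and the 6 arrays were quantile normalized, taken to log2 and averaged over the spots of a probe. Quantile normalization gives the same value to probes that hold the same rank on different arrays. Of 56605 probes, 34566 matched 23787 symbols by accession (61.1%). A probe was tested if above background in at least 0.5 of its spots on at least 1 array. Tests were limma 3.58.1 (lmFit, eBayes; R 4.3.3), two-sided, with Benjamini-Hochberg adjustment over all 39550 probes, and the script was tested on simulated data. That simulation changed few probes, so it does not cover tissues that differ as widely as these. P-values measure the spread between these 3 samples of each tissue. Precision is limited by having 3 arrays on each side. The text names members of 39 gene lists (the brightest probe of each gene) and, in each direction, the 10 genes with the largest difference and the 10 with the largest lower limit. Lists and members were chosen with earlier results of these data known, and some members are not reported here. Same-numbered samples did not deviate together (correlations of deviations 0.039, -0.017 and 0.002), so no pairing was assumed. Alternatives changed background correction, scaling, filter, outlier flags, model, slide and replicates.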

Additional observations from a re-analysis of the deposited data

Results flagged for a closer look

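The tissue difference of *Chil3* at baseline was smaller than that after 4, 8 and 12 Gy, by a test of the difference itself in the limma fit of 36 arrays. At 1 and 2 Gy the change was not called. Lung minus liver was larger than at 0 Gy by 1.84 ± 0.42 at 4 Gy (adjusted p = 0.0473), by 2.66 ± 0.42 at 8 Gy (adjusted p = 0.000591) and by 2.58 ± 0.42 at 12 Gy (adjusted p = 0.000376). In liver its mean level was 7.13 at 0 Gy, 6.88 at 1 Gy, 5.96 at 2 Gy, 5.23 at 4 Gy, 4.28 at 8 Gy and 4.33 at 12 Gy, while in lung all 6 means lay between 15.78 and 16.24 (3 mice in each group). The lowest level well above background was 4.06 to 4.64 on the unirradiated liver arrays, normalized with lung as 6 arrays. The liver means at 8 and 12 Gy were near that floor, so the changes at these doses may be lower limits. Over all 47376 probes of that fit, the tissue difference was called as changed from 0 Gy for 1 probe at 1 Gy, 25 at 2 Gy, 133 at 4 Gy, 470 at 8 Gy and 2778 at 12 Gy. Groups of 3 samples were too small to test single arrays as outliers.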

How the results depend on the processing

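No probe called in either direction was called in the opposite one under any alternative run on probes, except 8 with slide as a term in the 36-array fit and 9 within the shared slide, an alternative chosen after seeing the data. Against 8583 probes higher in lung and 7959 higher in liver, scaling to the reference genes called 13750 and 4322, limma treat 4905 and 4529, and probes averaged per gene, with fewer features tested, 4624 and 3747. The filter for probes above background on all 6 arrays, which tests fewer probes, called 4275 higher in lung. Against 2074 and 1559 differences above 3, the counts were 3388 in lung with scaling to the reference genes, 1286 with a normexp offset of 50, 3274 with the scanner's processed signal after quantile normalization, 3417 with that signal scaled to the 75th percentile and 3178 with the deposited series values, and 949 and 960 with the filter on all 6 arrays and 1266 and 933 with probes averaged per gene. The cause was not tested for the other counts. Leaving out each replicate in turn gave 7914 to 8602 probes higher in lung, 7574 to 8055 higher in liver, and 2030 to 2111 and 1529 to 1597 large differences. With the replicate number as a block, which rests on a number alone, 8603 and 7976 probes were called. Single genes moved across the threshold in the opposite direction under some scalings: *Hc* was at -1.15, -1.20 and -1.32, *Inmt* at -1.15, -1.18 and -1.29 and *Rps18* at -1.02, -1.06 and -1.17 with 75th percentile scaling of the corrected signal, of the processed signal and in the deposited series values, and *Hprt* was at -1.02 in the last. The deposited series values also had an equal 75th percentile on each array, so these alternatives share that scaling. Scaling to the reference genes put *Hoxb3* at 0.00 and *Lep* at 0.06. With probes averaged per gene, *Slc10a1* was at -5.27, *Hemgn* at 0.21 *Hoxb3* at 0.45 and *Kazn*, whose brightest probe was higher in liver, at 1.13. Of 858 recomputed list counts 798 stayed within 1.5 times the reported count. Under the filter on all 6 arrays, 15 complement and clotting genes, 9 bile acid, 14 urea cycle and 6 cytochrome P450 genes remained called in liver, and 10 type 2 cell, 6 club cell, 5 ciliated cell and 5 cardiac genes in lung. Genes below background in either tissue were not tested under it. It left 16 complement and clotting, 10 bile acid and 15 urea cycle genes to test, and 12 type 2 cell, 9 club cell, 5 ciliated cell and 6 cardiac genes. Signal over background limits all genes measured in only 1 tissue, whose differences are lower limits.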

Other observations

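Probes designed to long intergenic non-coding RNA regions were called higher in liver more often than in lung. Of 2578 tested, 277 were called higher in lung (10.7%) and 598 higher in liver (23.2%), with a median difference of -0.30. Of 24865 probes to coding RefSeq transcripts 24.9% were higher in lung and 21.3% higher in liver. Detection of the non-coding probes went the other way. Above background on all 3 lung arrays and no liver array were 266, against 42 for the reverse, and 1048 were so on every array. The median of all tested probes moved to -0.31 with 75th percentile scaling and to 0.55 with scaling to the reference genes. The effect of scaling on these shares was not tested. Different probes of a gene could also differ in opposite directions. Of 6587 symbols with at least 2 tested probes, 95 had probes called in both directions. For *Tpm1*, which codes for tropomyosin, a probe was higher in lung by 3.60 and another differed by -3.09. For *Kazn*, a desmosome protein, 3 probes were higher in lung, by 1.35 to 3.35, and 1 differed by -3.39. The probes at 3.35 and -3.39 carry the same accession. For *Cd4*, *Dnaic2*, *Itgax*, *Ms4a1*, *Myh6* and *Tg* the brightest probe was called and a dimmer one was not. *Tpm1* and *Kazn* were named after their values were seen, and whether the probes read different isoforms was not tested.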
